A study of Saccharomyces cerevisiae with 6 samples.

Results

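The 52 genes described are of Saccharomyces cerevisiae. They encode the subunits of RNA polymerase II, its initiation factors TFIIE, TFIIF and TFIIH, the elongation factor TFIIS and the Mediator complex. They were chosen by name from the 7125 genes of the deposited table, and all 52 passed the filter on low counts that left 6080 genes for testing. RNA polymerase II makes messenger RNA. At a promoter it meets the TATA-binding protein and the general initiation factors, which place it on the DNA and open the strands, while Mediator, a large modular complex, carries signals from activators and repressors to the polymerase. By role, 12 genes belonged to the polymerase itself, here called the polymerase core, 15 to the initiation factors and TFIIS, and 25 to Mediator.

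Poly(A)-selected RNA of S288C-background yeast was sequenced in 6 libraries, 3 of a wild type and 3 of a kap114 knockout, in which the gene for a nuclear import receptor of the TATA-binding protein is removed. All 6 library names also carry the term TAF1, which the labels do not explain and which may name something both strains share. All cultures grew in YPD, a rich glucose medium, with NaCl added to 1.5 M, so the salt was common to both groups and no response to salt was measured. Separate cultures are not mentioned in the labels, nor is the number of knockout clones, so the p-values stand on a library-to-library spread that may be technical. Counts of KAP114 were 257, 336 and 312 in the wild type and 0 in each knockout library.

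Depth ranged from 33638728 to 38540115 counts per library, and the genes described had between 161 and 22520 counts in a library. Knockout library 1 lay nearer to the wild type than the other knockout libraries did, with first principal component scores of 12.01 against 53.0 and 42.4 (wild type, -43.0 to -29.5). The ribosomal RNA precursor locus took 3.69% to 4.54% of all wild-type counts and 9.05% to 12.3% of all knockout counts, and the part of this difference in the results was not tested. Levels are given as TPM, a share of all transcripts corrected for gene length, in the order of libraries 1 to 3. Log2 fold changes, as knockout over wild type, come from edgeR's quasi-likelihood test on the counts. A gene is said to have risen or fallen when its Benjamini-Hochberg adjusted p over all tested genes was under 0.05. RNA from a culture does not tell a change in all cells from a change in the number of cells that carry the transcript.

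The transcripts for the machinery of RNA polymerase II did not move as a block. Of the 52 genes, 15 rose and 21 fell in the knockout, while across all tested genes 34.3% rose and 30.0% fell. In counts scaled by TMM, the normalization of the test, the groups of libraries did not overlap for 40 of the 52, beside 73.8% of all tested genes. In 9 of the 52 the called change was 2-fold or more (all tested genes, 24.8%): 6 rose by that much (17.1% of all) and 3 fell (7.63% of all). Of the genes for polymerase subunits that serve all 3 nuclear polymerases, 4 of 5 rose, those for initiation factors fell or did not pass, and those for Mediator were split, with 10 up and 10 down. The median log2 fold change of the 52 was -0.09 and that of all tested genes 0.01. Without knockout library 3 the number that fell was 12 instead of 21, and for all tested genes 1090 instead of 1826; without wild-type library 1 the latter was 1211.

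**Figure D1:**
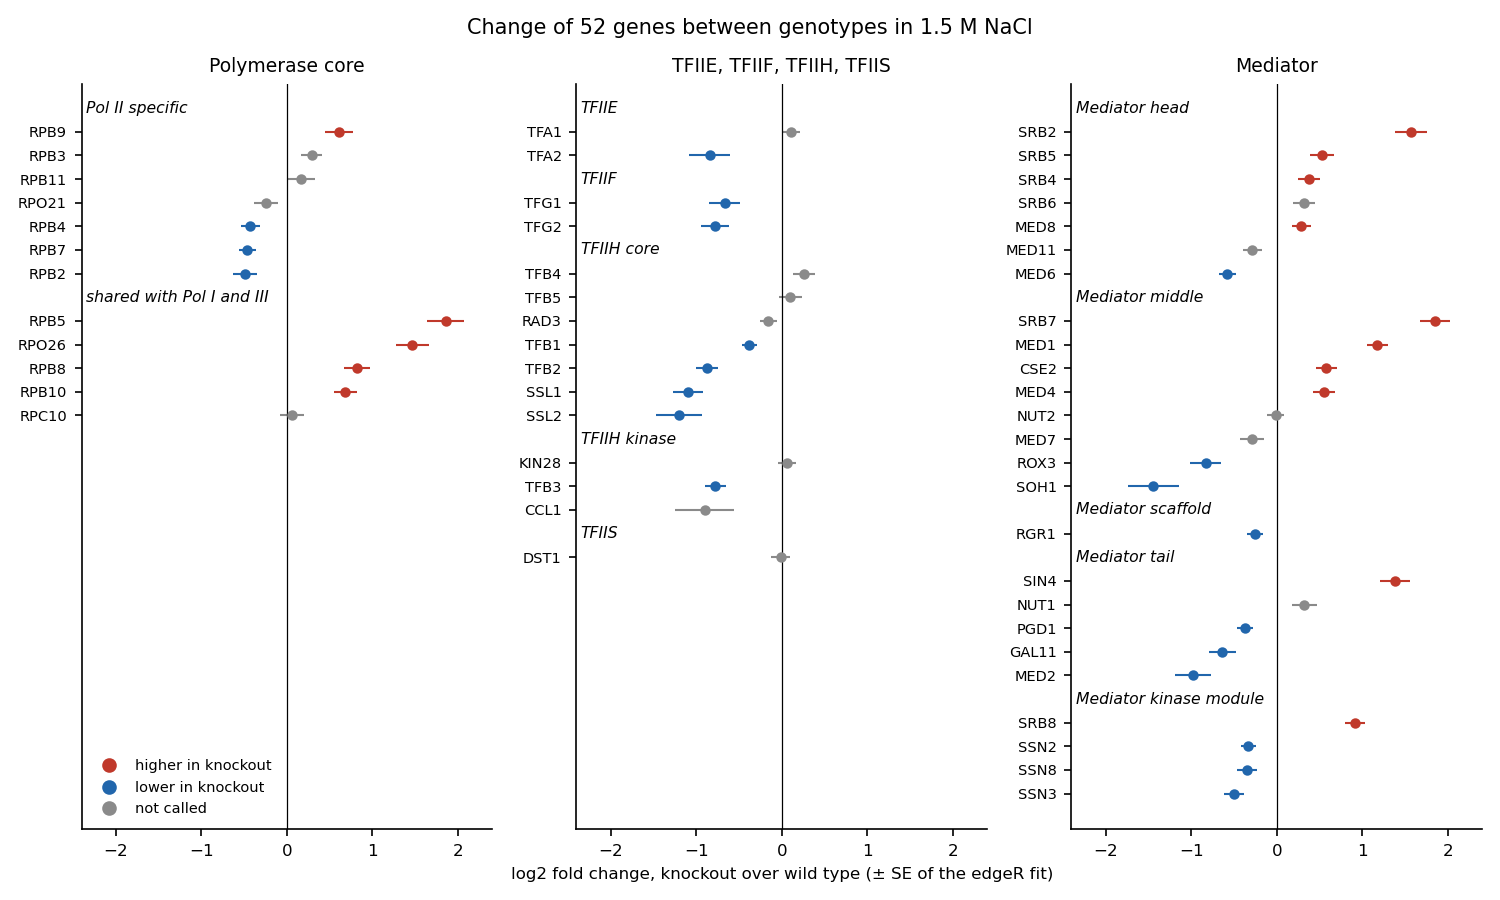
Log2 fold changes of the 52 genes, knockout over wild type, with the SE of the fit, grouped by complex; red marks genes that rose, blue genes that fell and grey genes that did not pass. The 4 largest increases among the polymerase genes are all of subunits shared with RNA polymerases I and III, no initiation factor gene rose, and the Mediator genes lie on both sides of 0.

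RNA polymerase II has 12 subunits. RPB5, RPO26, RPB8, RPB10 and RPC10 encode small subunits that are also built into RNA polymerases I and III, which transcribe ribosomal and transfer RNA genes. RPB5 (YBR154C, chromosome II, 548362 to 549009, minus strand, build R64) had 23.5, 31.0 and 24.8 TPM in the wild type and 64.2, 108 and 101 TPM in the knockout. Every knockout library was above every wild-type library, and library 1 was the lowest of the knockout. RPB5 had the largest fold change of the 52 genes, 3.63-fold (log2 1.86 ± 0.22, SE, edgeR adjusted p = 0.00114).

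RPO26 (YPR187W, chromosome XVI, 911257 to 911800), which encodes the shared subunit Rpb6, had 102, 132 and 123 TPM in the wild type and 229, 368 and 340 TPM in the knockout. It rose 2.77-fold (log2 1.47 ± 0.20, edgeR adjusted p = 0.00116) and became the most abundant of the polymerase transcripts in all 3 knockout libraries, a place that RPB4 held in the wild type. RPB8 went from 65.5, 75.0 and 70.3 TPM to 93.1, 136 and 125 TPM, a 1.77-fold rise. RPB10, whose product is needed for assembly of the enzymes, went from 62.1, 71.3 and 64.7 TPM to 84.7, 108 and 110 TPM, a 1.61-fold rise. RPC10, which encodes Rpb12, was the exception among the shared subunits, with 44.5, 50.6 and 61.4 TPM against 51.6, 53.9 and 49.3 TPM. Its groups overlapped, and its log2 fold change was 0.06 ± 0.14 (edgeR adjusted p = 0.736). The calls of RPB5, RPO26, RPB8 and RPB10 were kept under all 16 alternative analyses.

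Subunits that belong to RNA polymerase II alone gave another picture. RPO21 encodes the largest subunit, whose C-terminal repeats are phosphorylated during transcription, and RPB2 the subunit that forms the other wall of the active cleft. RPB2 (YOR151C, chromosome XV, 612997 to 616671, minus strand) had 88.4, 85.8 and 88.9 TPM in the wild type and 69.0, 56.6 and 53.5 TPM in the knockout. It fell by 0.48 ± 0.14 on the log2 scale (edgeR adjusted p = 0.0180). RPO21 had 87.1, 77.5 and 80.7 TPM against 71.5, 63.5 and 63.2 TPM. The groups did not overlap, but the adjusted p was 0.170 in edgeR. RPO21 passed as lower with only library totals as scaling, with DESeq2 and with limma on log2 TPM. The level of RPO21 relative to RPB2 was 0.986, 0.904 and 0.908 in the wild type and 1.04, 1.12 and 1.18 in the knockout.

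RPB4 and RPB7 encode the stalk, a pair of subunits that can leave and rejoin the enzyme. RPB4 (YJL140W, chromosome X, 150961 to 151626) had 311, 295 and 311 TPM in the wild type and 224, 222 and 203 TPM in the knockout, a log2 fold change of -0.43 ± 0.11 (edgeR adjusted p = 0.0113). RPB7 had 108, 99.7 and 109 TPM against 76.7, 76.1 and 65.8 TPM, a log2 fold change of -0.46 ± 0.10 (edgeR adjusted p = 0.00625). The 2 transcripts kept close to their ratio, with RPB4 over RPB7 at 2.88, 2.96 and 2.86 in the wild type and 2.93, 2.91 and 3.09 in the knockout. In both genes knockout library 1 was at the level of library 2, unlike in most other called genes of the 52.

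RPB9, which acts in start site choice and proofreading, was the only gene of the Pol II-specific subunits that rose in the analysis as reported. It had 30.8, 34.8 and 31.8 TPM in the wild type and 37.9, 56.8 and 46.6 TPM in the knockout, a 1.53-fold rise (edgeR adjusted p = 0.0145). RPB3 and RPB11, whose products pair as a platform for assembly, did not pass, with log2 fold changes of 0.29 ± 0.12 and 0.16 ± 0.16. RPB2 no longer passed when wild-type library 1 or 3 or knockout library 3 was left out, RPB4 when wild-type library 1 or knockout library 3 was, and RPB9 when wild-type library 1 or 3 was (edgeR adjusted p up to 0.0886). Of the 12 core genes 3 fell (25%), beside 30.0% of all tested genes. The number of core genes that fell was 1 when either wild-type library 1 or knockout library 3 was left out. Over all tested genes the number that fell was then 1211 and 1090, instead of 1826. Without knockout library 1, RPO21 passed as lower and RPB3 and RPB11 passed as higher (0.0470, 0.0347 and 0.0124). In sum over the subunits, the 7 specific transcripts had 837, 807 and 810 TPM in the wild type and 677, 724 and 665 TPM in the knockout. The 5 shared ones had 297, 360 and 344 TPM against 523, 774 and 725 TPM. RPB4 weighed most in the specific sum, with means of 306 TPM in the wild type and 217 TPM in the knockout. RPO26 weighed most in the shared sum, with 119 and 312 TPM.

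**Figure D2:**
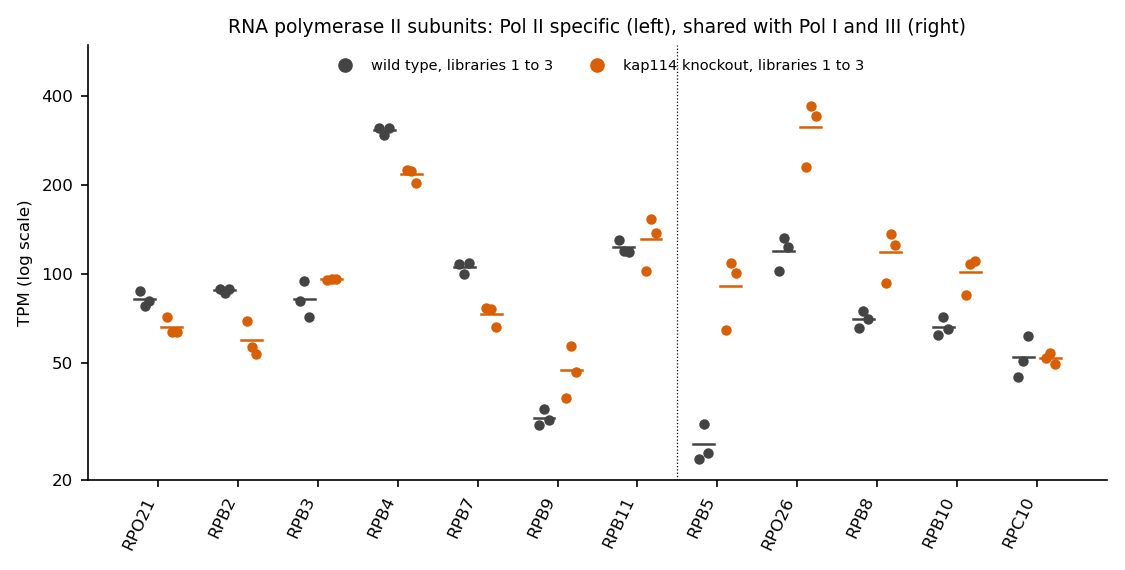
TPM of the 12 polymerase transcripts in each library on a log scale, with wild-type libraries 1 to 3 in grey, knockout libraries 1 to 3 in orange and a bar at each mean. For RPB5, RPO26, RPB8 and RPB10, to the right of the dotted line, all knockout points lie above the wild-type points, as they do for RPB9 and RPB3 on the left; for RPO21, RPB2, RPB4 and RPB7 they lie below.

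A further 19 genes encode parts of RNA polymerases I and III that RNA polymerase II lacks. Of these, 15 rose and 3 (RPA14, RPO31 and RPC37) fell, beside 34.3% and 30.0% of all tested genes, with a median log2 fold change of 0.88, against a median of 0.82 for the 5 shared subunits and -0.24 for the 7 specific to RNA polymerase II. RPA43 (4.96-fold), RPA49 (5.27-fold) and RPA12 (3.49-fold), all for subunits of polymerase I, had the smallest p in the list. The ratio of RPB5 to RPB2 was 0.266, 0.362 and 0.279 in the wild type and 0.930, 1.91 and 1.88 in the knockout.

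Promoters of polymerase I and III genes are known in yeast for the PAC element, and its core was searched in the 300 bases from 250 before to 50 after each gene's start. The letters GATGAG, on either strand, were found in 16 of the 19 windows of polymerase I and III genes (84.2%) and in 0 of the 5 windows of the shared subunits. Of all 6020 protein-coding windows 20.3% held them. The letters were also in windows of 3 related lists described below. These were 5 of 8 for assembly and nuclear import of RNA polymerase II (62.5%) and 3 of 5 for other initiation factors (60.0%). For elongation factors and the C-terminal repeat enzymes it was 3 of 19 (15.8%). Among the polymerase I and III genes the letters did not separate rises from falls. RPA14, RPO31 and RPC37, which fell, hold a match, and RPA12, RPC17 and RPC11, which rose, hold none. The sequences of the genome build R64 from 200 bases before the start to base 9 of the reading frame are shown for the 2 shared genes with the largest rise and for 2 genes with the element that rose by a like amount, RPA135 (2.83-fold), for a large subunit of polymerase I, and RPC40 (2.39-fold), for a subunit common to polymerases I and III. Capitals mark GATGAG or its complement CTCATC, and lower case is the rest.
RPB5, chrII:549001-549209, minus strand: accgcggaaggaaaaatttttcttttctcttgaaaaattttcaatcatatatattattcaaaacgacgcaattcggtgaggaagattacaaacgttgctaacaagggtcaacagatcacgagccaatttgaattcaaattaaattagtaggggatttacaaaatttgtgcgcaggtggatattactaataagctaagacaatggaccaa
RPO26, chrXVI:911057-911265, plus strand: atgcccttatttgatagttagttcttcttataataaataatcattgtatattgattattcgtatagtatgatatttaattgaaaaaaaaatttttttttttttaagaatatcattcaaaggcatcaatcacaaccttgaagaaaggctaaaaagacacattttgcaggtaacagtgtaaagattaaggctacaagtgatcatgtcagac
RPA135, chrXVI:581188-581396, minus strand: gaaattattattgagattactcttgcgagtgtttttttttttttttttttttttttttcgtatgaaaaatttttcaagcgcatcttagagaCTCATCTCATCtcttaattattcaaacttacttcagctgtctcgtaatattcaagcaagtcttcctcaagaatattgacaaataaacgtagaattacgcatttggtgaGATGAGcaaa
RPC40, chrXVI:746827-747035, minus strand: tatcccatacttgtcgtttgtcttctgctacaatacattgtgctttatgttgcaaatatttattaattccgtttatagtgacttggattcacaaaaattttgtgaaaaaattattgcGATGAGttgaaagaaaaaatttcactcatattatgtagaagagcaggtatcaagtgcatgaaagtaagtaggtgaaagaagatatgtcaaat
In RPA135 the matches at 109 and 104 bases before the start overlap each other by 1 base, and a further match covers the start codon. The windows of RPB5 and RPO26 hold no match, which says only that these letters are not in them.

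The initiation factor transcripts were lower or did not pass. Of the 15 genes for TFIIE, TFIIF, TFIIH and TFIIS, 8 fell and 0 rose, beside 30.0% and 34.3% of all tested genes. The number that rose was 0 under all 16 alternatives. All that fell except TFB1 and TFB2 had wild-type means above 100 TPM. Of all tested genes at 100 TPM or more, 49.0% fell and 21.9% rose. The summed level of the 15 was 1791, 1796 and 1835 TPM in the wild type and 1338, 950 and 1020 TPM in the knockout. TFIIF, which arrives with the polymerase and stabilises it on the promoter, includes the products of TFG1 and TFG2. TFG1 (YGR186W, chromosome VII, 867774 to 869981) had 252, 254 and 270 TPM in the wild type and 194, 133 and 139 TPM in the knockout, a log2 fold change of -0.67 ± 0.18 (edgeR adjusted p = 0.0147). TFG2 had 253, 247 and 277 TPM against 177, 126 and 128 TPM, a log2 fold change of -0.78 ± 0.16 (edgeR adjusted p = 0.00545). The ratio of TFG1 to TFG2 stayed between 0.975 and 1.10 in all 6 libraries.

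TFIIE, which brings in TFIIH, has 2 subunits, and their transcripts differed. TFA2, for the small subunit, had 204, 213 and 212 TPM in the wild type and 158, 79.4 and 97.5 TPM in the knockout, a log2 fold change of -0.84 ± 0.24 (edgeR adjusted p = 0.0170). TFA1, for the large subunit, had 82.8, 84.0 and 78.7 TPM against 79.1, 89.9 and 83.5 TPM, with overlapping groups and a log2 fold change of 0.11 ± 0.10. TFA2 was therefore at 2.46, 2.54 and 2.69 times the level of TFA1 in the wild type and at 1.99, 0.883 and 1.17 times in the knockout.

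TFIIH unwinds promoter DNA, repairs damaged DNA and phosphorylates the C-terminal repeats of the polymerase. Of its 10 genes 5 fell, beside 30.0% of all tested genes. SSL2 (YIL143C, chromosome IX, 80510 to 83041, minus strand), for the translocase that opens the promoter, had 224, 202 and 207 TPM in the wild type and 127, 61.3 and 75.4 TPM in the knockout. All knockout libraries were lower, and the fall of 2.29-fold was the largest among the initiation factors (log2 -1.20 ± 0.27, edgeR adjusted p = 0.00707). SSL1, for a structural core subunit, had 184, 178 and 173 TPM against 101, 65.2 and 71.9 TPM, a 2.14-fold fall (edgeR adjusted p = 0.00201). TFB2, which encodes a partner of Ssl2, had 31.8, 29.9 and 32.9 TPM against 19.5, 14.5 and 15.3 TPM, a 1.83-fold fall. TFB1, for another core subunit, fell by 0.38 ± 0.08 on the log2 scale, with a narrow spread of 40.1 to 40.9 TPM in the wild type and 29.3 to 30.6 TPM in the knockout.

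Other TFIIH genes did not pass. RAD3, for the helicase used in nucleotide excision repair, had 22.0, 21.5 and 22.0 TPM against 18.7, 20.3 and 16.9 TPM, with groups that were apart in TPM but overlapped in TMM-scaled counts (edgeR adjusted p = 0.194). SSL2 exceeded RAD3 by 10.2, 9.40 and 9.39 times in the wild type and by 6.76, 3.02 and 4.47 times in the knockout. TFB4 and TFB5, for core subunits, had log2 fold changes of 0.26 ± 0.13 and 0.10 ± 0.14.

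In the kinase part of TFIIH, TFB3, for the subunit that ties the kinase to the core, had 142, 136 and 144 TPM in the wild type and 91.6, 71.6 and 71.8 TPM in the knockout, a 1.71-fold fall (edgeR adjusted p = 0.00196). KIN28, for the kinase, had 73.2, 82.5 and 79.5 TPM against 85.4, 68.9 and 78.9 TPM (log2 0.06 ± 0.10). CCL1, for its cyclin, had 151, 155 and 154 TPM against 124, 41.8 and 68.6 TPM. The groups did not overlap for CCL1, but the knockout libraries spread widely and the edgeR adjusted p was 0.0514; it was 6.76e-05 without knockout library 1, and the gene also passed under 7 of the 10 alternatives that kept all libraries. DST1, for TFIIS, which helps a stalled polymerase to resume, had 65.9, 69.1 and 71.4 TPM against 56.4, 69.8 and 68.1 TPM (log2 -0.01 ± 0.11). TFA2 and TFG1 did not pass when wild-type library 1 or 3 or knockout library 3 was left out (edgeR adjusted p up to 0.0699).

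**Figure D3:**
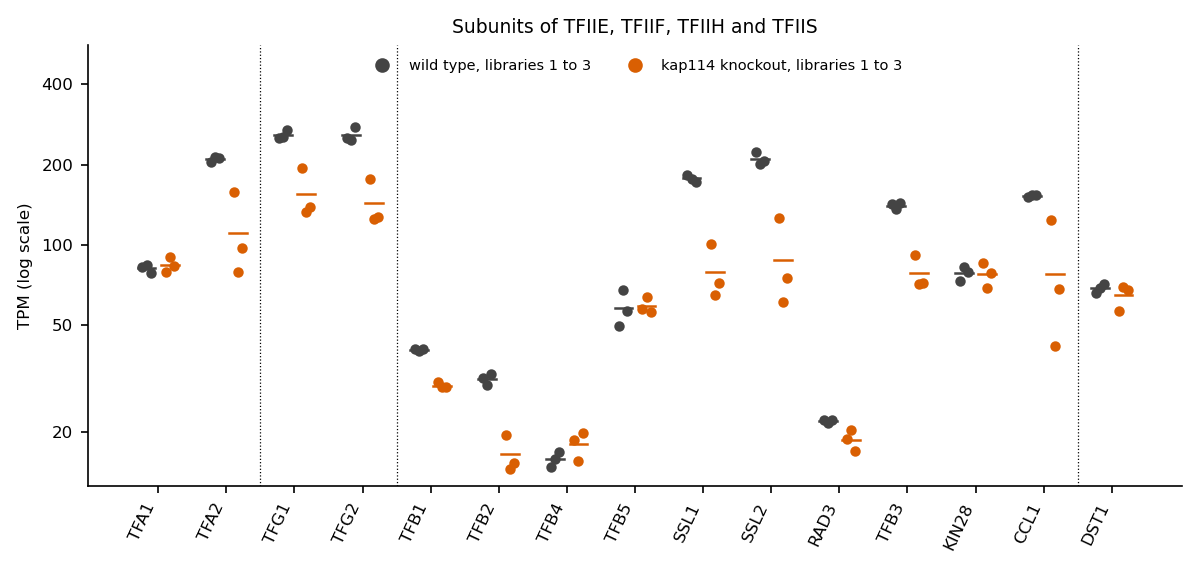
TPM in each library, on a log scale, of the genes for TFIIE, TFIIF, TFIIH and TFIIS, divided by dotted lines; grey points are wild-type libraries 1 to 3, orange points knockout libraries 1 to 3 and bars the means. TFA2, TFG1, TFG2, TFB1, TFB2, SSL1, SSL2, TFB3 and CCL1 are lower in all knockout libraries, with knockout library 1 nearest to the wild type, while TFA1, TFB4, TFB5, KIN28 and DST1 overlap and RAD3, which did not pass, lies slightly lower.

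Mediator genes rose and fell in equal number. Of 25 genes 10 rose and 10 fell, 80.0% in all beside 64.3% of all tested genes. The summed level of the 25 was 1933, 1900 and 1937 TPM in the wild type and 1441, 1206 and 1301 TPM in the knockout. ROX3, SOH1 and MED2 weighed most in the wild-type sum. Their means were 485, 387 and 275 TPM in the wild type and 260, 136 and 133 TPM in the knockout, so the sum does not describe most subunits. The head module of Mediator contacts the polymerase, the middle module transmits the signal, the tail binds activators, Rgr1 joins them, and a separable kinase module can block the contact with the polymerase. Without knockout library 3 the number that fell was 5, and over all tested genes 1090 instead of 1826. Rises and falls were found within the head, middle, tail and kinase modules alike.

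In the head, 4 of 7 genes rose and 1 fell, beside 34.3% and 30.0% of all tested genes. The alternatives gave 1 to 5 rises and 1 to 2 falls in the head. SRB2 (YHR041C, chromosome VIII, 189131 to 189864, minus strand), which encodes Med20, had 7.98, 9.42 and 9.94 TPM in the wild type and 19.6, 30.5 and 26.9 TPM in the knockout, a 2.97-fold rise (log2 1.57 ± 0.19, edgeR adjusted p = 0.00114). SRB5, for Med18, the partner of Med20, rose 1.44-fold, from 13.6, 16.6 and 12.3 TPM to 18.0, 20.1 and 20.1 TPM. SRB4, for Med17, the central subunit of the head, had 11.0, 10.5 and 10.7 TPM against 11.3, 14.7 and 13.7 TPM, a 1.30-fold rise, and MED8 rose 1.22-fold. MED6, whose product lies at the joint to the middle module, fell 1.49-fold, from 48.2, 50.04 and 43.0 TPM to 29.7, 28.9 and 31.5 TPM (edgeR adjusted p = 0.00294). SRB6 and MED11 did not pass, with log2 fold changes of 0.32 ± 0.13 and -0.29 ± 0.11 and edgeR adjusted p of 0.0622 and 0.0531. SRB4 and MED8 lost their calls when any library but knockout library 1 was left out (edgeR adjusted p up to 0.113 and 0.168), and SRB5 when knockout library 3 was (0.0593). With all libraries kept, MED8 also lost its call in 7 and SRB4 in 3 of the 10 alternatives. MED11 passed as lower with RLE scaling, library totals, DESeq2 and limma on log2 TPM. SRB6 passed without knockout library 1 (edgeR adjusted p = 0.00104).

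The middle module held both the largest rise and the largest fall of Mediator. SRB7 (YDR308C, chromosome IV, 1078027 to 1078449, minus strand), which encodes Med21, had 10.6, 11.6 and 10.6 TPM in the wild type and 29.8, 44.2 and 38.4 TPM in the knockout. Its log2 fold change was 1.85 ± 0.18 (3.60-fold, edgeR adjusted p = 0.00111). SOH1 (YGL127C, chromosome VII, 270392 to 270775, minus strand), which encodes Med31, had 387, 369 and 406 TPM against 208, 85.8 and 113.7 TPM, a log2 fold change of -1.44 ± 0.30 (2.72-fold, edgeR adjusted p = 0.00517). The 2 groups stood apart for both genes. SOH1 was at 36.5, 31.8 and 38.3 times the level of SRB7 in the wild type and at 6.99, 1.94 and 2.96 times in the knockout.

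ROX3, which encodes Med19 and was the most abundant Mediator transcript in all 6 libraries, fell from 511, 473 and 471 TPM to 322, 207 and 251 TPM (1.78-fold, edgeR adjusted p = 0.00604). MED1 rose 2.26-fold from a low level, 4.95, 5.09 and 4.99 TPM, to 9.49, 11.3 and 11.5 TPM. CSE2, for Med9, rose 1.50-fold, from 31.3, 39.0 and 33.1 TPM to 49.1, 46.1 and 51.9 TPM, and MED4 1.47-fold, from 53.6, 70.2 and 59.5 TPM to 73.8, 90.1 and 91.3 TPM. MED7, for the partner of Med21, and NUT2, for Med10, did not pass, at log2 fold changes of -0.29 ± 0.14 and -0.01 ± 0.10. The scaffold gene RGR1, for Med14, had 19.8, 19.1 and 18.8 TPM against 16.5, 15.2 and 14.6 TPM and fell by 0.25 ± 0.09 on the log2 scale. Leaving out any library but knockout library 1 ended that call (edgeR adjusted p up to 0.164), as did upper-quartile scaling.

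In the tail, 3 of 5 genes fell and 1 rose, beside 30.0% and 34.3% of all tested genes. MED2 and PGD1, for Med2 and Med3, and GAL11, for Med15, which activators such as Gal4 and Gcn4 bind, all fell. MED2 had 280, 260 and 286 TPM in the wild type and 176, 103 and 121 TPM in the knockout (1.97-fold, edgeR adjusted p = 0.00553). GAL11 had 98.8, 90.4 and 91.7 TPM against 70.3, 49.9 and 52.4 TPM (1.55-fold), and PGD1 48.7, 44.3 and 45.6 TPM against 34.7, 34.8 and 32.7 TPM (1.29-fold). SIN4 (YNL236W, chromosome XIV, 206930 to 209854), for Med16, which links the tail to the rest, rose 2.61-fold, from 4.24, 4.56 and 3.98 TPM to 8.26, 12.6 and 10.8 TPM (log2 1.38 ± 0.17, edgeR adjusted p = 0.00114). The ratio of GAL11 to SIN4 was 23.3, 19.8 and 23.1 in the wild type and 8.50, 3.96 and 4.83 in the knockout. NUT1, for Med5, did not pass (log2 0.32 ± 0.14, edgeR adjusted p = 0.0815) but did without knockout library 1 (0.00270). The call of PGD1 ended without knockout library 3 and that of GAL11 without wild-type library 1 or knockout library 3 (edgeR adjusted p of 0.0544 and up to 0.0557).

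In the kinase module, 3 of 4 genes fell and 1 rose, beside 30.0% and 34.3% of all tested genes. SSN3 and SSN8, for the kinase Cdk8 and its cyclin, and SSN2, for Med13, which tethers the module, fell, and SRB8, for Med12, rose. SSN3 had 60.0, 55.3 and 61.8 TPM in the wild type and 45.0, 34.9 and 39.7 TPM in the knockout (1.41-fold, edgeR adjusted p = 0.00890). SSN8 had 18.2, 19.6 and 18.9 TPM against 16.1, 12.8 and 13.5 TPM (1.27-fold), and SSN2 11.7, 11.6 and 12.7 TPM against 9.58, 8.77 and 8.85 TPM (1.26-fold). SRB8 (YCR081W, chromosome III, 254371 to 258654), the least abundant of the 52 transcripts in every library, had 3.09, 3.51 and 3.44 TPM against 5.32, 6.50 and 6.20 TPM, a 1.89-fold rise (edgeR adjusted p = 0.00114). SRB8 relative to SSN2 went from 0.264, 0.303 and 0.271 to 0.555, 0.742 and 0.701. SSN8 lost its call when any library but knockout library 1 was left out, and SSN2 when wild-type library 3 or knockout library 3 was (edgeR adjusted p up to 0.130 and 0.0603). Upper-quartile scaling also ended the call of SSN8.

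**Figure D4:**
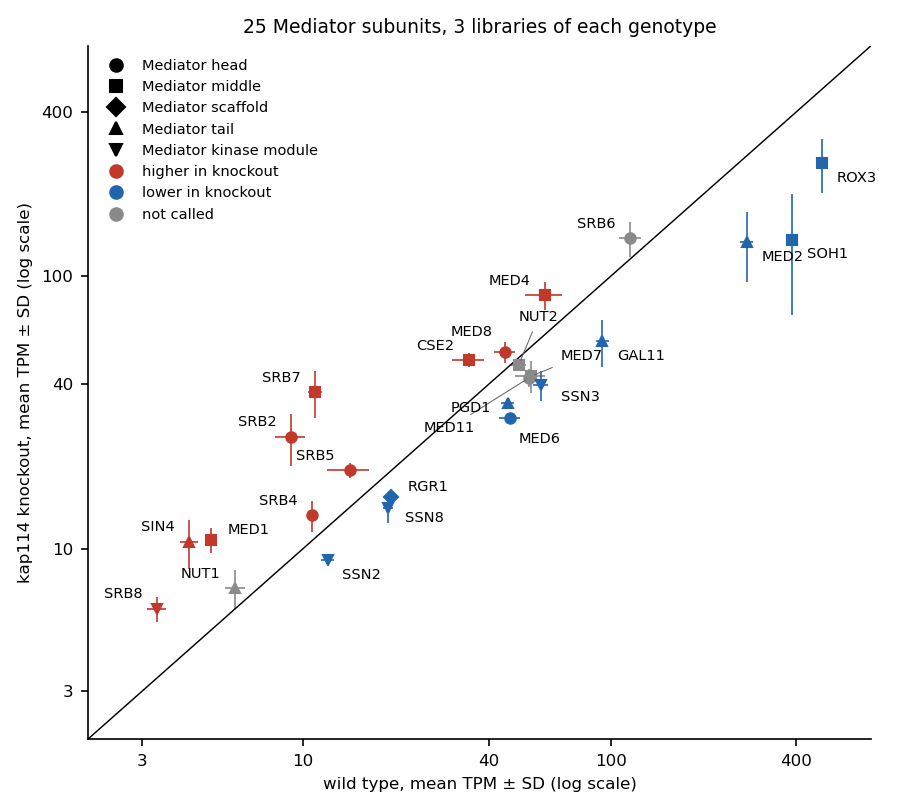
Mean TPM of the 25 Mediator transcripts in the knockout against the wild type, both on log scales, with SD over 3 libraries; the shape gives the module, the colour the call and the line equal levels. Transcripts at low wild-type levels, such as SRB8, SIN4, MED1, SRB2 and SRB7, lie above the line, and the abundant ROX3, SOH1 and MED2 lie below it.

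Within Mediator, the transcripts that rose were mostly the scarce ones. Of the 11 Mediator genes under 20 TPM in the wild type 7 rose and 3 fell, and of the 4 at 100 TPM or more 0 rose and 3 fell. Over all 52 genes, 7 of 12 under 20 TPM rose and 11 of 15 at 100 TPM or more fell, with 1 rise, that of RPO26. All tested genes leaned the same way: 49.98% rose and 9.50% fell under 20 TPM, and 21.9% rose and 49.0% fell at 100 TPM or more. Spearman's rho between wild-type TPM and log2 fold change was -0.74 over the 25 Mediator genes and -0.63 over the 52. It was -0.57 over the 15 genes of initiation factors and TFIIS, -0.47 over the 12 core genes and -0.34 over the 6080 tested genes. These are descriptions across genes, which are not independent, and the wild-type libraries enter both quantities.

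The levels of Mediator subunits lay closer together in the knockout. The most abundant Mediator transcript exceeded the least abundant by 166, 135 and 137 times in the wild type and by 60.7, 31.8 and 40.5 times in the knockout. The SD of log2 TPM over the 25 genes was 1.99, 1.93 and 1.97 in the wild type against 1.58, 1.34 and 1.42 in the knockout. For TFIIH it was 1.37, 1.34 and 1.31 against 1.17, 0.931 and 0.985, and for the polymerase core the groups nearly met, at 0.980, 0.872 and 0.938 against 0.758, 0.861 and 0.871. Within the core, the SD over the 7 Pol II-specific subunits was 0.990, 0.913 and 0.981 in the wild type and 0.774, 0.763 and 0.774 in the knockout. The levels of the 5 shared polymerase subunits lay about as far apart or farther in the knockout, at 0.823, 1.001 and 0.998 against 0.786, 0.771 and 0.831. The 19 genes for polymerases I and III drew together, from 1.57, 1.35 and 1.43 to 0.922, 0.894 and 0.935, while over 6066 tested genes above 0 in every library the SD was 2.38 to 2.46 (wild type) and 2.32 to 2.35 (knockout).

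**Figure D5:**
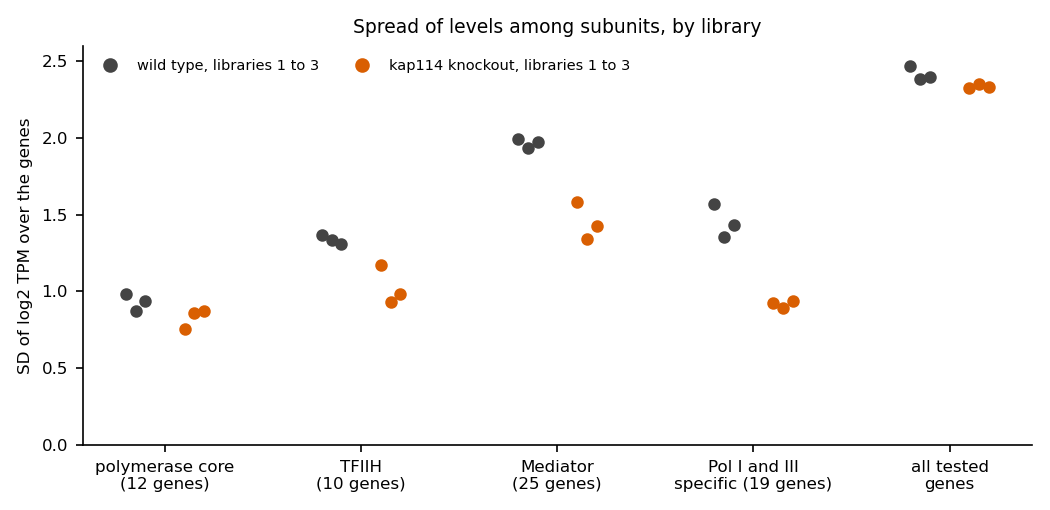
SD of log2 TPM over the genes of each complex, 1 point per library, with wild-type libraries 1 to 3 in grey and knockout libraries 1 to 3 in orange. Mediator lies between 1.93 and 1.99 in grey and between 1.34 and 1.58 in orange, and the points of TFIIH and of the polymerase I and III genes are also apart.

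Genes that work beside the polymerase were taken as 3 further lists, to be read beside the 34.3% of all tested genes that rose and the 30.0% that fell. Of the 5 other initiation factor genes 4 fell and 0 rose; those named by the rule were TOA1 (1.67-fold), for a subunit of TFIIA, SPT15 (1.54-fold), for the TATA-binding protein, and SUA7 (1.66-fold), for TFIIB. SPT15 fell from 423, 418 and 411 TPM to 313, 219 and 243 TPM. Of 19 genes for elongation factors and for kinases and phosphatases of the C-terminal repeats, 8 fell and 3 rose. CTK3, for a subunit of a C-terminal repeat kinase, fell 1.68-fold, and CDC73 and CTR9, both for subunits of the Paf1 complex, rose 1.61-fold and 1.50-fold. Of 8 genes for assembly and nuclear import of the polymerase, 5 fell and 1 rose: GPN3, for a GTPase of polymerase assembly, rose 1.48-fold, while GPN2, for a related GTPase, and RTP1, for a factor of nuclear import of the polymerase, fell 1.89-fold and 1.87-fold. Median log2 fold changes were -0.63, -0.17 and -0.36 for these lists. The number that fell depended on single libraries, in the 3 lists as over all tested genes (1826 with all libraries). Without knockout library 3 it was 1, 4 and 2 in the 3 lists and 1090 over all tested genes. Leaving out wild-type library 1 gave 2, 4 and 2 (all tested genes, 1211), and wild-type library 2 gave 2, 7 and 3 (1439). Leaving out wild-type library 3 gave 3, 4 and 2 (1331), and knockout library 2 gave 3, 8 and 2 (1516). Without knockout library 1, 1 other initiation factor gene and 5 elongation genes rose, and over all tested genes 2378 instead of 2085.

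The size of the changes differed between knockout libraries. Of the 36 genes of the 52 that rose or fell, 31 lay nearest to the wild type in knockout library 1; the others were RPB4, RPB7, MED6, CSE2 and PGD1. Over the genes that rose, knockout libraries 1 to 3 differed from the mean of the wild type by a median of 0.58, 1.04 and 0.90 on the log2 scale, and over those that fell by -0.39, -0.83 and -0.76. All tested genes had the same pattern. Their medians were 0.73, 1.17 and 1.08 over those that rose and -0.47, -0.94 and -0.82 over those that fell. Without knockout library 1, 19 genes of the 52 rose and 23 fell, beside 2378 and 2261 of the 6111 genes then tested. A total of 7 of the 52, RPB3, DST1, PGD1, GAL11, SIN4, SRB8 and SSN2, overlap a gene annotated on the opposite strand. The overlapping genes had 0 to 3.98 TPM. Their mean level was 19.9% of that of SIN4 in the wild type and 3.22% in the knockout, and 1.13% and 12.04% of that of SRB8; it reached at most 8.94% for the others. The sources used here give the library kit as stranded but not the strand setting of the counting.

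In the authors' deposited table of 2212 selected genes, 18 of the 52 are listed, 6 as higher and 12 as lower in the knockout (17 of them called here, and CCL1 not), with log2 fold changes that differ from those above by at most 0.0012. The smallest absolute log2 change in the authors' deposited table is 0.586. SRB2, SIN4, MED1 and SRB8 passed and exceeded that change but are not listed there; their wild-type levels were 3.09 to 9.94 TPM, while the lowest wild-type mean of a listed gene was 10.3 TPM.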

How the data were processed

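Per the file headers, the authors' table holds whole-number read counts per gene, not normalized, with RPKM and TPM of the same 6 libraries; RPKM was not used further. The authors' deposited log2 fold changes cover the genes they selected. FastQC and the build R64 are named in the submitters' processing notes; aligner and counting program are not given there. All 52 genes had the start and end of the R64 annotation used.

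Genes were filtered with filterByExpr (minimum count 10, minimum total count 15), scaled with TMM and tested with edgeR 4.0.16 (robust quasi-likelihood fit) under R 4.3.3; p was adjusted by Benjamini-Hochberg over 6080 genes; 4166 had an unadjusted p under 0.05. Fold changes and SE come from this fit, while levels and ratios are deposited TPM, so that TPM ratios differ slightly from the folds. On simulated data of 6058 genes the test recovered 91.0% of changes of 1 on the log2 scale, with 8 false calls of 199. The simulation changed few genes, all well counted and as many up as down, and gave every gene the same dispersion. In the data 64.3% of all tested genes were called, so these shares do not carry over to the calls given here.

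The genes, lists, motifs and alternatives were chosen with earlier results of these data known; the ratios, level classes and neighbouring genes were chosen after the values were seen. The rule was to name all 52 genes and, of each related list, the 3 genes with the smallest p; RPA135 and RPC40 were added afterwards. Other scalings (library totals, RLE, upper quartile), DESeq2 1.42.0, limma 3.58.1 with voom, limma on log2 TPM with a pseudocount of 1 or 0.1, tests without a filter, a filter of 10 CPM in 3 libraries, a replicate block and the omission of each library served as alternatives.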

Additional observations from a re-analysis of the deposited data

How the results depend on the processing

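Of the 36 genes that rose or fell, 23 kept their call in all 16 alternatives and 0 changed direction in any. Leaving out 1 library gave 12 to 23 genes of the 52 as lower, 1 to 4 in the polymerase core, 5 to 10 in Mediator and 1090 to 2261 over all tested genes. With only library totals as scaling all tested genes had a median log2 change of -0.13 (0.01 as reported), and 13 of the 52 rose and 26 fell. Genes near 0 changed sign: with library totals RPC10 (-0.089), TFA1 (-0.032), TFB5 (-0.044) and KIN28 (-0.086), with limma on log2 TPM, at pseudocounts of 1 and 0.1, RPC10 (-0.0043 and -0.0041) and KIN28 (-0.0159 and -0.0161), with upper-quartile scaling DST1 (0.064) and NUT2 (0.063), and without 1 library RPC10 (-0.028 to 0.18), KIN28 (-0.0014 to 0.13), DST1 (-0.076 to 0.087) and NUT2 (-0.056 to 0.025). The cause was not tested.

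Same-numbered libraries correlated at 0.32, 0.18 and -0.07 in their deviations from the group means. Libraries of different numbers were not compared, so these values cannot tell whether the replicate numbers of the titles pair the libraries. The library names within the titles number the knockout libraries otherwise than the replicate numbers do. With the number as a replicate block 16 genes rose and 21 fell of the 52 (core 5 and 3, initiation factors 0 and 9, Mediator 11 and 9), and 2059 and 1857 of all tested genes. It ended the call of RGR1 (edgeR adjusted p = 0.0523), and CCL1 (0.0126) and SRB6 (0.0411) passed.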

Other observations

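Of the 52 genes, 32 have a protein-coding neighbour upstream that is read in the other direction, and for 12 the gap between both starts is under 300 bases, so that the genes share an upstream region. In 7 of these 12 pairs both genes passed the edgeR test, 6 in the same direction. Over all protein-coding genes, 363 such pairs had both genes tested; both passed in 39.4% of them, and 74.8% of those went in the same direction. SOH1 (log2 -1.44) and SCS3 (-0.81) fell on either side of 221 bases, TFG2 (-0.78) and PRP18 (-0.84) fell across 210 bases, and RPO26 (1.47) and PZF1 (0.71), which encodes the transcription factor TFIIIA of RNA polymerase III, rose across 234 bases. TFG1 (-0.67) and TYS1 (2.29), which encodes the tyrosyl-tRNA synthetase, went in opposite directions across 253 bases. The pairs were examined after the changes were known and are given as values.

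The PAC core letters GATGAG were in 7 of the 21 windows of genes that fell and in 0 of the 15 windows of genes that rose among the 52. They were in 15.4% of the 52 windows and in 20.3% of all windows. In RPB2, SSL1 and TFA2 the match lies in or across the start of the reading frame, as does the nearer match of TFB3. On either strand, TATAAA was in 36.5% of the 52 windows (45.4% of all windows). The stress element core AGGGG was in 21.2% (21.6% of all), and the Reb1 site TTACCCG was in 7 of the 52, or 13.5% (7.06% of all).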
